A study of Homo sapiens with 24 samples.

Results

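The comparison described here is that of HepG2 cells treated with 50 nM ABBV-075 (libraries ABBV075_50-1 to ABBV075_50-3) with HepG2 cells given the solvent DMSO (libraries Con-1 to Con-3). These 6 libraries were taken by their titles from the 24 libraries of the series, 3 per group. HepG2 is an established cell line from a human liver tumour, and the study's methods call the replicates experimental triplicates. The labels give no time. The methods give 12 h with ABBV-075 and can be read as 24 h with DMSO, so an effect of a difference in time cannot be told apart from that of the inhibitor. Total RNA was depleted of ribosomal RNA, made into libraries that keep the strand, and counted per gene. All results are therefore from 1 cell line at 1 dose, and in bulk RNA fewer cells that make a transcript and less transcript per cell cannot be told apart. A further 6 libraries, 3 of HepG2 cells given interferon gamma (IFNg) and 3 given IFNg with ABBV-075, were used to look at the same genes in separate libraries.

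ABBV-075 binds the bromodomains of the BET proteins. Bromodomains hold on to acetylated lysines, mostly on histones, and BET proteins bring the kinase complex P-TEFb to promoters and enhancers, where it releases paused RNA polymerase II into elongation. HEXIM1 keeps P-TEFb inactive within a complex with the small RNA 7SK, and its transcript is a widely used pharmacodynamic marker of BET inhibition. The liver is known for a small set of transcription factors, among them HNF4A, FXR (NR1H4) and PXR (NR1I2), which drive the genes for plasma proteins, bile acid handling and detoxification, and HepG2 cells have kept much of this program.

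The genes used as markers of the response differed between the groups without overlap, HEXIM1 and DHRS2 being higher and MYC lower in every treated library. HEXIM1 had 55.5, 58.5 and 52.01 CPM (counts scaled to a common library size) with DMSO and 138, 147 and 155 CPM with ABBV-075, so that its log2 fold change was 1.41 with a standard error of 0.12 (adjusted p = 6.81e-06). Throughout, p is that of edgeR's quasi-likelihood test, adjusted by Benjamini and Hochberg's method over all genes, and library sizes were corrected by the trimmed mean of M values (TMM). MYC, the transcription factor gene often lowered by BET inhibitors, had 103, 106 and 124 CPM with DMSO and 64.4, 70.7 and 65.9 CPM with ABBV-075 (log2 fold change -0.73, standard error 0.13). DHRS2, a short-chain dehydrogenase, had 2297, 2184 and 2153 CPM with DMSO and 14224, 14354 and 17248 CPM with ABBV-075 (log2 fold change 2.79). Over the 6 libraries it was among the 10 transcripts with the highest mean CPM, beside the small RNAs RN7SL1, RN7SK, RN7SL2, RPPH1, RMRP and SNORD3A, the ribosomal RNA28S5, APOB and FTL. Of these, APOB (0.84) and FTL (0.57) rose, and the small RNAs had log2 fold changes between -0.17 (SNORD3A) and -0.017 (RPPH1), none of which passed the test.

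The libraries held liver transcripts in both groups. The summed level of 5 hepatocyte markers (ALB, TTR, APOA1, SERPINA1 and HNF4A) was 10637 to 10851 CPM with DMSO and 9168 to 9825 CPM with ABBV-075, and none of the 5 passed the test. Defining markers of other cells were at 0 in all 6 libraries, namely KRT7 of bile duct cells, COL1A2, COL3A1, DCN, LUM and THY1 of fibroblasts, KDR and CLDN5 of endothelium, and PTPRC and CD3E of leukocytes. COL1A1, PECAM1, CDH5 and VWF had 5 or fewer counts in every library, and CD14 had 1 to 18. Of the markers with enough counts to be tested, PDGFRB fell from 6.05, 7.54 and 7.11 CPM to 1.70, 1.15 and 2.46 CPM (-1.96 on the log2 scale), CD68 (-0.81), KRT19 (-0.35) and EPCAM (-0.66) fell, and SOX9 did not pass the test (0.15). Summed levels were 397 to 431 CPM with DMSO and 318 to 387 CPM with ABBV-075 for bile duct markers and 1.60 to 2.21 and 0.243 to 1.23 CPM for endothelial markers. LYZ, also a leukocyte marker, had 1685, 1798 and 1775 CPM with DMSO and 1217, 1149 and 1249 CPM with ABBV-075 (-0.54) and made up most of the summed leukocyte markers, which were at 1706 to 1819 CPM with DMSO and at 1161 to 1264 CPM with ABBV-075. The part of such markers in the results below was not tested.

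Of 26475 gene symbols, 11244 had enough counts to be tested. With an adjusted p of at most 0.05, called passing the test in what follows, 2225 genes rose (19.8% of those tested) and 2199 fell (19.6%), 39.3% in all. The median log2 fold change over all genes tested was 0.026, and the middle of the distribution lay between -0.37 and 0.42 (quartiles). Past an absolute log2 fold change of 1.5 as well, 122 genes rose (1.09%) and 359 fell (3.19%), so that larger changes were more often decreases. Of these 481 genes, 237 are named in the text and tables of the study that could be read, and 244 are not. Genes without a match there are called outside the tables of the study in what follows. The study's tables of top up- and downregulated genes had no readable rows, so such a gene may still be listed in them. Symbols were compared as written, so such a gene may also be named by the study under another symbol. Of 527 names read from the study, 293 were found among the genes tested. Of the 481 genes, 189 are members of the 87 lists of functions and gene families described here. The 6 libraries held 3351138 to 4304103 counts on genes, so 1 CPM corresponds to about 3 to 4 counts and low genes carry large counting error.

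The libraries differed in ways that follow the GC content and the length of the genes, and these moved with the groups. Genes were put into 5 groups of equal size by the GC content of the transcript. In the group with the lowest GC content 39.2% rose and 5.999% fell, while in that with the highest 12.2% rose and 26.4% fell. The genes that rose had a median GC content of 41.8% and the genes that fell one of 52.1%, against 47.5% over all genes tested. Median gene length was 49312 bases for the genes that rose and 23605 bases for those that fell. The 3 ABBV-075 libraries did not share this trend equally. Genes of the lowest GC group had medians 0.69, 0.44 and 0.034 above the DMSO mean in ABBV-075 replicates 1, 2 and 3, on a log2 scale, and genes of the highest group had medians of -0.28, -0.20 and 0.052. ABBV-075 replicate 3 thus had no such trend, and it also stood apart from the other two on the second principal component, which held 14.5% of the variance beside 70.6% on the component that separates the treatments. Without replicate 3, 3028 genes rose and 2967 fell, 230 and 460 of them past the fold threshold, while without replicate 1 the rises past it were 95. Leaving out ABBV-075 replicate 2, DMSO replicate 1 or DMSO replicate 3 lowered the rises that passed the test to 1398, 1365 and 1408. The part of GC content in the results was not tested.

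**Figure D1:**
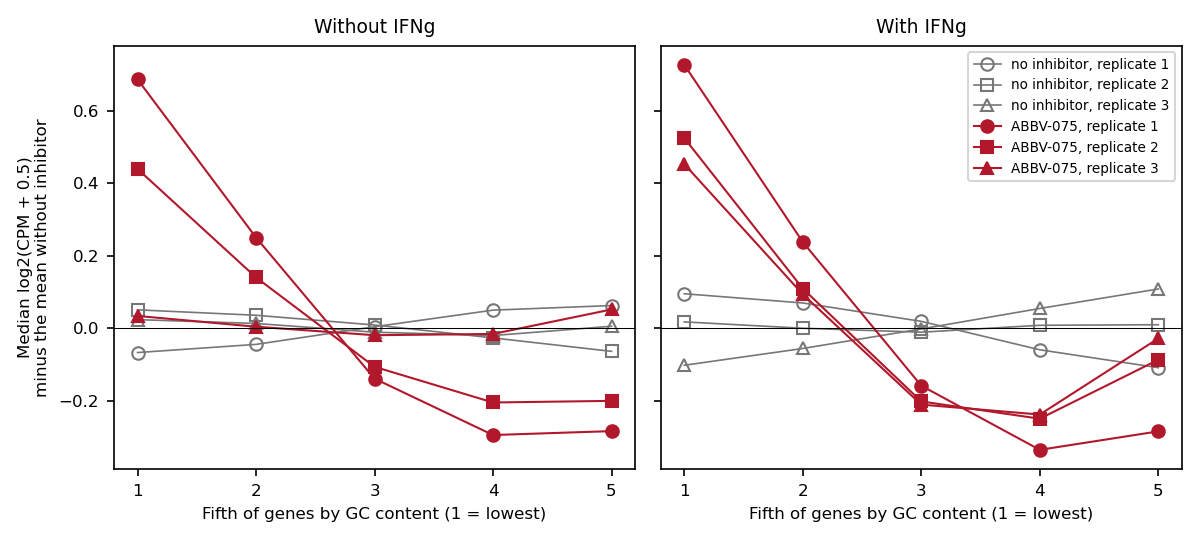
Median difference in log2(CPM + 0.5) from the mean of the libraries without inhibitor, for 5 groups of genes of equal size ordered by GC content, with 1 line for each library (left, DMSO and ABBV-075; right, the same with IFNg). ABBV-075 replicates 1 and 2 slope from 0.69 and 0.44 in the lowest group to below 0, replicate 3 stays near 0, and all 3 libraries of IFNg with ABBV-075 slope (0.73, 0.52 and 0.45 in the lowest group).

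The promoters of HEXIM1 and of the genes with the largest changes outside the tables of the study are shown as the 250 bases before the transcription start, from RefSeq (GRCh38.p14), 5′ to 3′ on the strand of the gene. Shown beside HEXIM1 are the pair of genes with the largest rise, DOPEY2 (now DOP1B) and KIF3A, and the pair with the largest fall, PVRL4 (now NECTIN4) and LINC00176 (in RefSeq C20orf204). Capitals mark the TATA box (TATAAA), the CCAAT box (the letters of its name) and the GC box (GGGCGG), searched on either strand. In the DOPEY2 window a pair of GC boxes shares 1 base, and the other matches shown do not overlap. These letter runs occur in 11.1%, 33.0% and 42.3% of the windows of the same length at the first listed start of 27305 genes. The windows are chr17:45148225-45148474 (plus strand), chr21:36156574-36156823 (plus), chr5:132737547-132737796 (minus), chr1:161089559-161089808 (minus) and chr20:64035932-64036181 (plus).
HEXIM1: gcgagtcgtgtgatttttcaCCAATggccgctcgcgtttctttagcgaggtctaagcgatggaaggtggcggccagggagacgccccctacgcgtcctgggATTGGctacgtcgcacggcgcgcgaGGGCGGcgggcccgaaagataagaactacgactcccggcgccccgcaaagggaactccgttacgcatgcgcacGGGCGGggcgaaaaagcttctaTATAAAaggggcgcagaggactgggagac
DOPEY2: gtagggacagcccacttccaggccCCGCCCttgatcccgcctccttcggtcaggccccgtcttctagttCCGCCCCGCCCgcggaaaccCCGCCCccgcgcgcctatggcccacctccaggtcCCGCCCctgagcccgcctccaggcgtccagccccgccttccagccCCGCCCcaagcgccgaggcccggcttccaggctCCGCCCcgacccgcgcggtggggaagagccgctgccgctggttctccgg
KIF3A: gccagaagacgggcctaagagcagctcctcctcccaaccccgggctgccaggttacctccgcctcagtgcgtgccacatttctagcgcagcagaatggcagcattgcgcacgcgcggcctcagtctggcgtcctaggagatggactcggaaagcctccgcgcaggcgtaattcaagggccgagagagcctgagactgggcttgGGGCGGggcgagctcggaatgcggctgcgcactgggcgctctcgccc
PVRL4: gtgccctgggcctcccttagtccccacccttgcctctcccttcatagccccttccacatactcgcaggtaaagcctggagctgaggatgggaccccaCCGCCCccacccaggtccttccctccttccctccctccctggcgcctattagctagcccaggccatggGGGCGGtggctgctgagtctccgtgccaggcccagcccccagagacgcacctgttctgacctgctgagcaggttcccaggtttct
LINC00176: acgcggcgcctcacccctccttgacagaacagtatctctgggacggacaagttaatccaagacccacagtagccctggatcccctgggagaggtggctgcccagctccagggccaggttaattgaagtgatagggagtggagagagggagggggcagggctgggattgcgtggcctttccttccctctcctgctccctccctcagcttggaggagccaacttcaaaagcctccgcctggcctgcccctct
The HEXIM1 window holds a TATA box, 2 CCAAT boxes and 2 GC boxes, that of DOPEY2 holds 7 GC boxes, KIF3A 1 and PVRL4 2, and LINC00176 none of the 3 letter runs. The RefSeq windows of HEXIM1 and DOPEY2 hold 31 and 28 CG dinucleotides, those of PVRL4 and LINC00176 6 each. In the GENCODE annotation the LINC00176 window lies inside the gene (64034344 to 64039962), which is classed there as protein coding. The windows of DOPEY2 and KIF3A overlap the starts of their genes in that annotation. Which start HepG2 cells use was not measured, and a match is a description of the letters.

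The 12 largest rises among genes outside the tables of the study that could be read came from many functions. In most of them the treated libraries spread widely. DOPEY2, a gene for a protein of endosomal sorting, had 4.67, 2.51 and 3.92 CPM with DMSO and 11.9, 18.8 and 20.6 CPM with ABBV-075 (log2 fold change 2.20, standard error 0.30, adjusted p = 1.78e-04 by edgeR). KIF3A, a kinesin of cilia, had 8.25, 8.22 and 4.66 CPM with DMSO and 48.4, 29.1 and 15.4 CPM with ABBV-075, so that all treated libraries were higher but replicate 3 lay far below replicate 1. The same order of the ABBV-075 libraries was seen in SERPINI1 (neuroserpin, 27.7, 19.9 and 12.3 CPM, log2 fold change 2.12), KIAA1033 (a subunit of the WASH complex, 202, 138 and 71.7 CPM, 1.94), ASPM (a spindle pole protein, 128, 91.2 and 51.4 CPM, 1.83) and BNIP3L (a mitophagy receptor, 36.5, 32.6 and 17.6 CPM, 1.86). By contrast, H2AFJ, a histone H2A variant, rose from 3.57, 3.43 and 4.66 CPM to 14.6, 14.4 and 17.2 CPM, and LOC93622, for which the annotation gave no position, from 7.42, 5.94 and 6.38 CPM to 22.1, 26.3 and 30.2 CPM, both with treated libraries close to each other. The remaining 4 were ZC2HC1A (1.89), KLHL24 (1.87), ZNF28 (1.86) and LYST (1.85), a regulator of lysosome size.

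The 12 largest decreases outside the tables of the study had every treated library below every DMSO library, as the rule required. PVRL4, which encodes the cell adhesion protein nectin-4, fell from 18.4, 20.8 and 14.96 CPM to 2.43, 0.577 and 1.23 CPM (log2 fold change -3.59, standard error 0.34, adjusted p = 1.75e-05 by edgeR), on 10, 2 and 4 counts in the treated libraries. LINC00176 fell from 168, 141 and 159.7 CPM to 21.9, 18.5 and 28.6 CPM (-2.77). SGK1, a kinase induced by glucocorticoids, fell from 40.7, 47.97 and 44.9 CPM to 10.9, 11.3 and 10.2 CPM (-2.04), and CLN3, a lysosomal membrane protein, from 48.1, 38.8 and 45.6 CPM to 8.02, 11.8 and 13.5 CPM (-2.001). HIST1H2BM, a replication-dependent histone gene, fell from 63.5, 59.4 and 57.2 CPM to 9.24, 16.7 and 16.01 CPM (-2.11), a value that is uncertain because the histone H2B genes are near-identical and reads that fit several places were left out of the counts. DGKG, a diacylglycerol kinase (-2.06), METTL21B, a lysine methyltransferase (-2.02), PLD6, a mitochondrial phospholipase (-1.99), LRFN4 (-1.94), FAM19A5 (-2.43), TMEM184A (-2.21) and LOC728743 (-2.25) made up the rest.

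**Figure D2:**
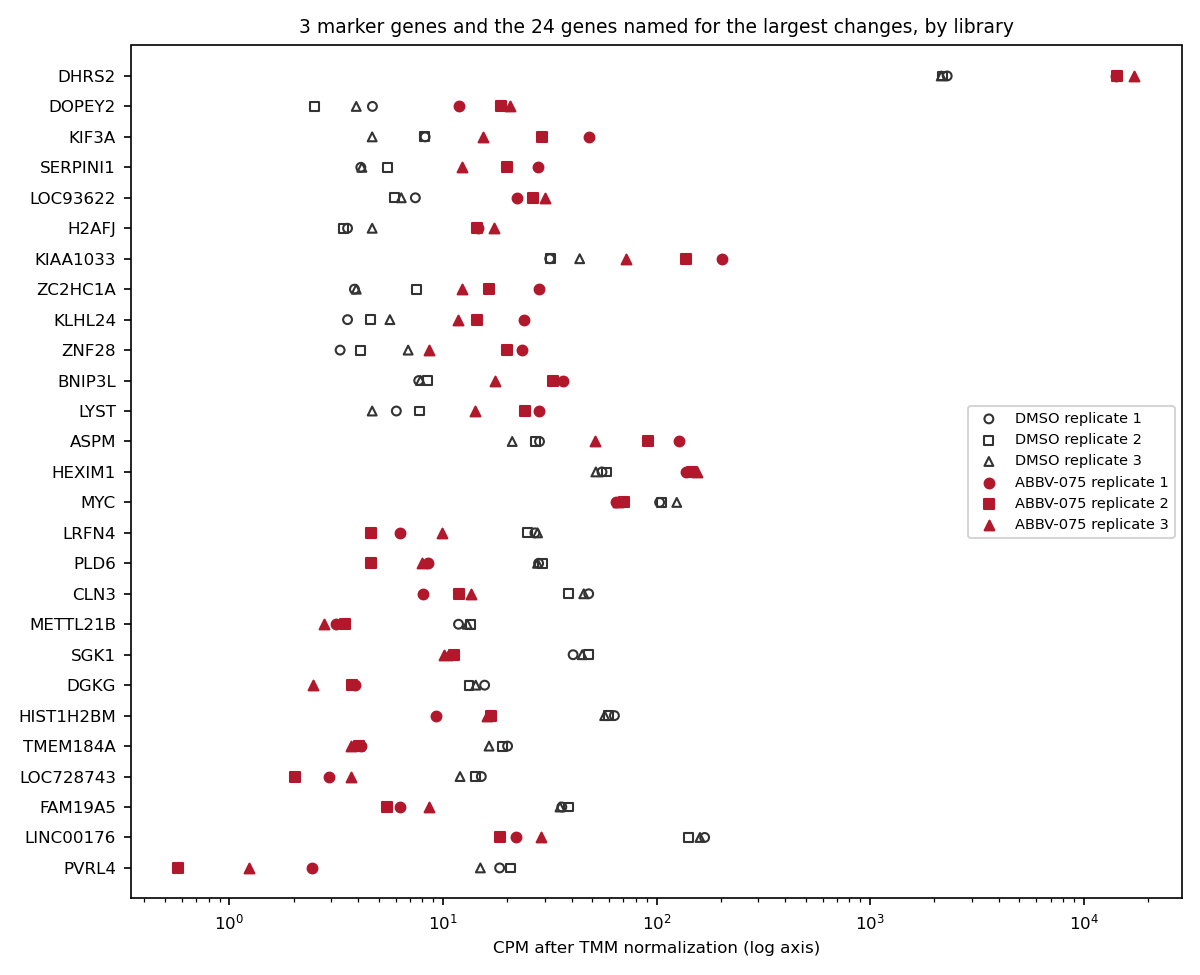
CPM on a log axis for 3 marker genes and for the 12 largest rises and 12 largest falls outside the tables of the study, with 1 point per library (open, DMSO; filled, ABBV-075). The treated points of KIF3A, KIAA1033 and ASPM spread with replicate 3 lowest, while those of HEXIM1, SGK1 and TMEM184A lie close together.

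Functions and families were then described for 83 lists with at least 8 members tested, which with 4 smaller lists hold 3035 of the genes tested. Members with too few counts to be tested are left out of the counts and medians below. In 57 the median log2 fold change was below 0 and in 26 above 0. Medians of 0.3 or more were seen in 7 lists and of -0.3 or less in 23 lists, against 0.026 over all genes. All 30 kept their sign in the 16 alternative settings. These settings reuse the libraries by which the 30 lists were picked, so this is not a separate test. Taken library by library, the list median was lower in all 3 ABBV-075 libraries than in all DMSO libraries in 48 lists, higher in 12 and overlapping in 23. In the accounts that follow, numbers in brackets after a gene are log2 fold changes, and counts of members are to be read against the 19.8% that rose and 19.6% that fell over all genes. Brackets after a count of members give its lowest and highest value over the 6 fits that each leave out 1 library, which over all genes ranged from 1365 to 3028 rises and from 1552 to 2967 falls. Counts from a fit that required at least 10 counts in every library stand against 2022 rises and 1940 falls over all genes kept there. Beside a median stand its values after a correction for GC content or without 1 library (an ABBV-075 replicate unless DMSO is named) where these differed from it by over 1.5 times and by more than 0.05, as in 30 and 43 of the 83 lists, and the word overlapping where the library medians of the groups overlapped. In 13 lists no member rose, or none fell, with edgeR's quasi-likelihood test. In that direction these lists had 0 to 2 members with an unadjusted p under 0.05 and 0 by DESeq2.

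**Figure D3:**
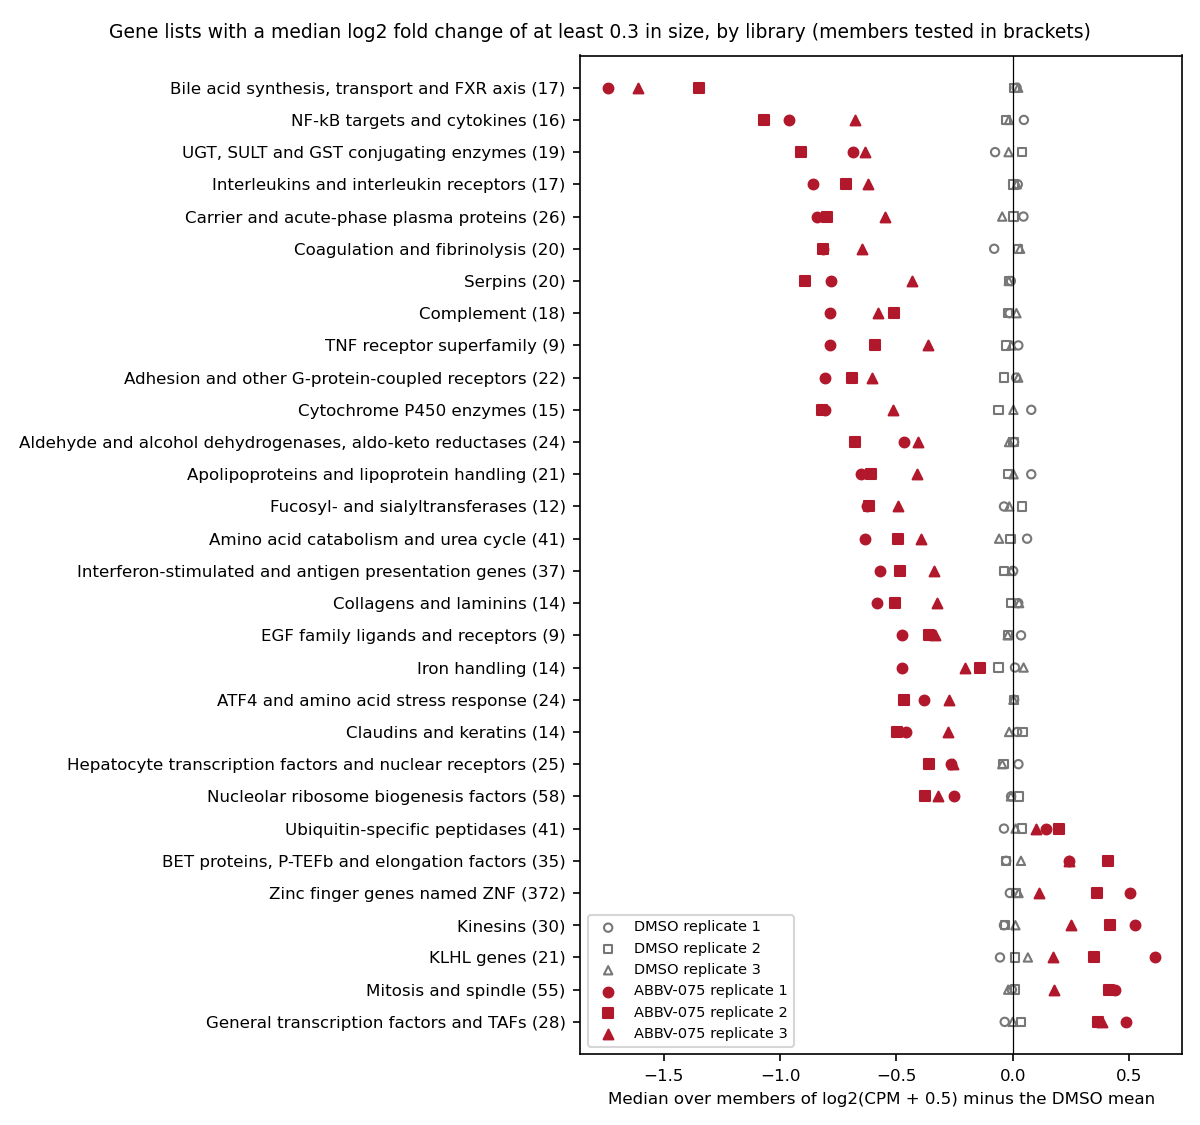
Median over the members of each list of log2(CPM + 0.5) minus the DMSO mean, with 1 point per library, for the 30 lists with a median log2 fold change of at least 0.3 in size. The treated libraries lie left of the DMSO libraries in 23 lists and right of them in 7. Among the treated libraries, replicate 3 is nearest to 0 in most of the 23 and in most of the 7.

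**Figure D4:**
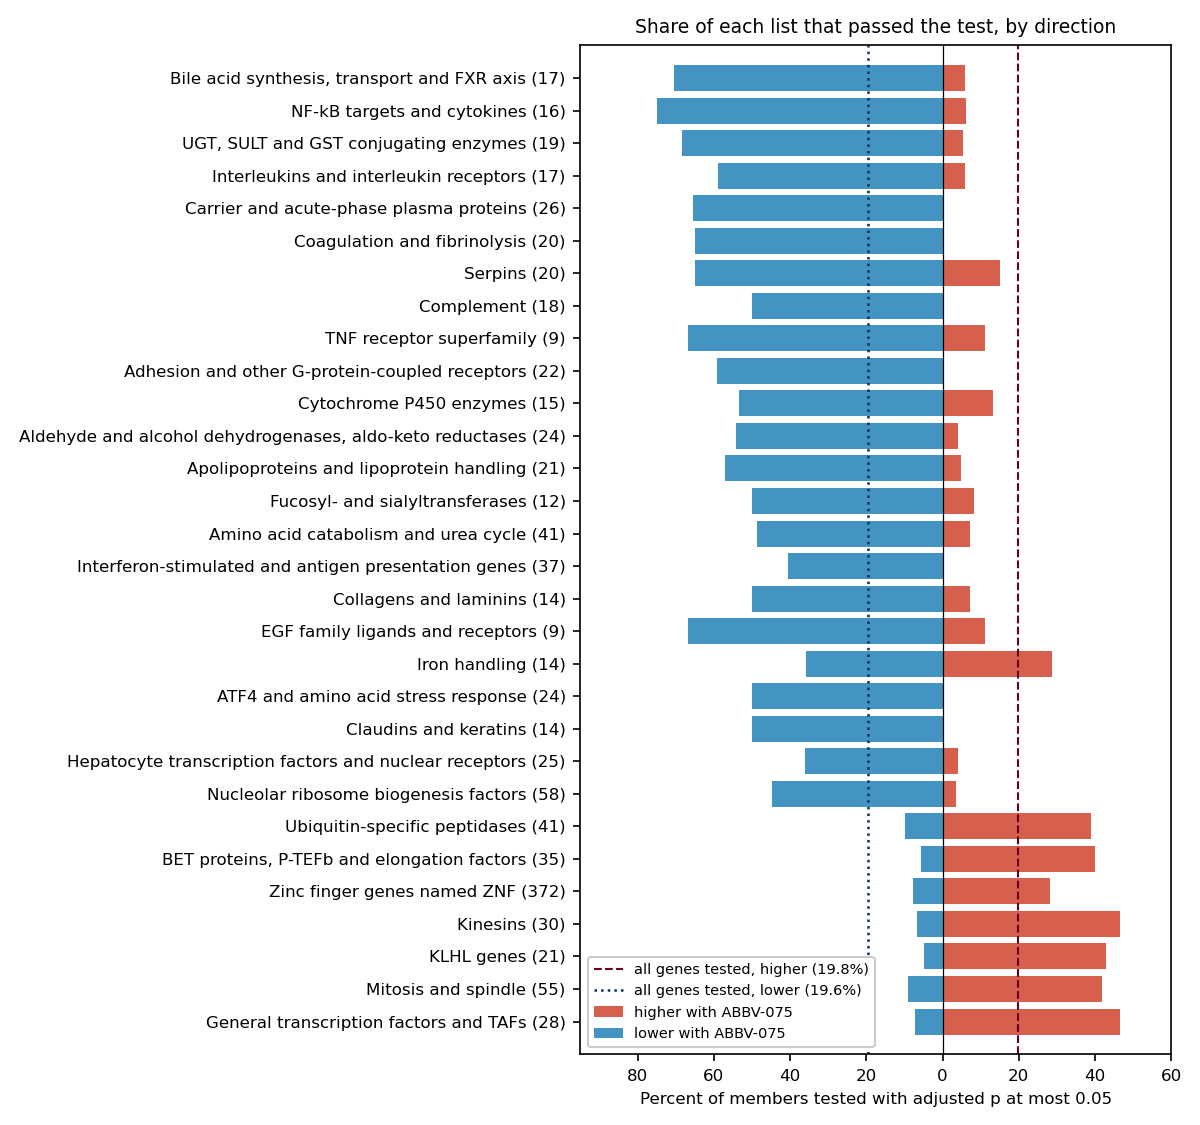
Percent of the tested members of the same 30 lists that passed the test as higher (right) or lower (left) with ABBV-075. The broken lines give the shares over all genes tested (19.8% higher, 19.6% lower), and the list for bile acids had 12 of 17 members lower.

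In the machinery of transcription, 40% of BET, P-TEFb and elongation factors and 46.4% of general transcription factors rose, against 19.8% over all genes. RNA polymerase II and Mediator subunits rose in shares nearer to that (23.1% and 24.1%). Of 35 BET, P-TEFb and elongation factor genes 14 (9 to 19) rose and 2 fell, with a median of 0.34 and library medians of 0.24, 0.41 and 0.24. After HEXIM1 the largest rise was that of CTR9, a subunit of the PAF1 elongation complex, from 10.2, 16.2 and 13.7 CPM to 35.98, 41.6 and 25.2 CPM (1.35). MLLT3 (0.98) and AFF4 (0.71), parts of the super elongation complex, rose too. Of the targets of the inhibitor, BRD2 rose (0.48). The falls were HEXIM2 (-1.01), the paralog of HEXIM1, and NELFCD (-0.99), a subunit of the negative elongation factor. Thus HEXIM1 and HEXIM2 moved in opposite directions, HEXIM2 from 10.2, 11.9 and 12.02 CPM to 5.35, 5.19 and 6.47 CPM. Among 28 general transcription factors and TAFs, the subunits of TFIID, 13 (10 to 15) rose and 2 (0 to 2) fell (median 0.45, library medians 0.49, 0.37 and 0.39), and after the GC correction the median was 0.35. TAF12 rose from 14.6, 12.1 and 13.98 CPM to 33.1, 28.3 and 41.3 CPM (1.33), and TAF3 (1.27), TAF5 (1.05), TAF7 (0.76) and GTF2A1, a subunit of TFIIA (0.90), rose as well. POLR2A, the catalytic subunit of RNA polymerase II, rose from 114, 101 and 95.9 CPM to 183, 279.6 and 347 CPM (1.38), while of all 13 polymerase subunits 3 (1 to 4) rose and 0 (0 to 2) fell (median 0.081, -0.0092 without replicate 3, overlapping, of the other sign in 1 of 16 settings). In Mediator, the coactivator between enhancers and polymerase, 7 (3 to 9) rose and 3 (2 to 4) fell of 29 tested (median 0.19, -8.34e-06 with the GC correction, 1 of 16 settings with the other sign), with MED23 (0.94) and MED19 (0.86) among the rises and MED24 (-0.96) among the falls.

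Among chromatin genes the shares that rose or fell were near or below those over all genes, apart from the rises of histone genes (29.8%). Of lysine demethylases and methyltransferases 9 (4 to 14) rose and 3 (2 to 5) fell of 43 tested (median 0.14, 0.026 without replicate 2, 0.068 without replicate 3, overlapping). KDM3A, a histone H3 lysine demethylase, rose from 71.2, 77.9 and 91.3 CPM to 191, 166 and 141 CPM (1.05), and KMT2C, an enhancer methyltransferase, rose by less (0.85), while KDM5C fell (-0.72). Among histone deacetylases and sirtuins 2 (2 to 3) rose and 2 (0 to 2) fell of 16 tested (median 0.11, 0.17 with the GC correction, 0.20 without replicate 1, 0.012 without replicate 2, 0.036 without replicate 3, overlapping), with SIRT1 (1.03) and HDAC11 (0.94) higher and HDAC7 (-0.82) and HDAC5 (-0.49) lower. Among chromatin remodelers 5 (3 to 8) rose and 3 (2 to 7) fell of 29 tested (median -0.04, 0.015 with the GC correction, 0.028 without DMSO replicate 2, overlapping, 3 of 16 settings with the other sign), with ARID4B (1.30) and CHD1 (0.91) higher and the BAF subunits SMARCD2 (-0.91) and SMARCC2 (-0.70) lower. Of the replication-dependent histone genes 14 (10 to 19) rose and 6 (3 to 8) fell of 47 tested (median 0.13, 0.26 with the GC correction, 0.21 without replicate 1, 0.21 without replicate 2, -0.0058 without replicate 3, 0.21 without DMSO replicate 1, overlapping, 1 of 16 settings with the other sign). HIST2H2BE rose from 25.02, 24.7 and 27.2 CPM to 51.1, 64.6 and 60.3 CPM (1.19) and HIST1H4C, one of the most abundant, rose (0.57), whereas HIST1H2BM and HIST1H2BI (-1.27) fell. As a class, the histone genes were highest in ABBV-075 replicate 3, with library medians of 0.03, -0.0052 and 0.38.

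Zinc finger genes named ZNF, most of which encode DNA-binding repressors of the KRAB type, were the largest family with a median above 0.3. Of 372 tested, 105 (60 to 167) rose and 29 (15 to 37) fell, 16 and 2 of them past the fold threshold. ZNF441 had 1.92, 3.65 and 2.21 CPM with DMSO and 17.02, 13.9 and 5.85 CPM with ABBV-075 (2.22), ZNF14 rose by 1.99 and ZNF28 by 1.86. The 5 most abundant, ZNF207, ZNF217, ZNF451, ZNF24 and ZNF664, had log2 fold changes between 0.068 (ZNF217) and 0.35 (ZNF664) and did not pass the test. The ZNF genes had a median GC content of 43.2%, their library medians were 0.50, 0.36 and 0.11, and the median of 0.36 became 0.24 after the GC correction. KLHL genes, substrate adaptors of cullin ubiquitin ligases, had 9 (7 to 11) rises and 1 (0 to 2) fall of 21 tested (median 0.39, 0.18 with the GC correction), with KLHL24 (1.87), KLHL28 (1.64) and KLHL20 (1.35) higher. Of ubiquitin-specific peptidases 16 (12 to 18) rose and 4 (4 to 5) fell of 41 tested (median 0.31, 0.19 without replicate 3). USP45 rose (1.53) while USP18, the interferon-induced ISG15 protease (-1.28), USP30 (-1.32) and USP2 (-1.22) fell. Of F-box genes 9 (5 to 14) rose and 7 (4 to 11) fell of 49 tested (median 0.25, 0.15 without replicate 1, 0.17 without replicate 2, 0.15 without DMSO replicate 3), and of TRIM genes 8 (5 to 10) rose and 7 (4 to 11) fell of 37 tested (median -0.077, -0.012 with the GC correction, -0.003983 without replicate 2, overlapping). TRIM23 (1.58) and TRIM37 (1.08) rose and TRIM38 (-1.29) fell.

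Of 55 genes of mitosis and the spindle, 23 (17 to 29) rose and 5 (3 to 7) fell (median 0.43, 0.23 with the GC correction, 0.28 without replicate 1, library medians 0.44, 0.41 and 0.18), but none of the 4 most abundant rose. CENPE, a kinetochore motor, rose from 13.2, 9.82 and 13.002 CPM to 58.8, 42.7 and 15.4 CPM (1.72), ANLN, which acts in cytokinesis, from 101, 112 and 116 CPM to 401, 301 and 199.5 CPM (1.46), and the checkpoint kinases TTK (1.42) and BUB1 (1.23) rose too. TPX2 (0.037), BIRC5 (-0.014) and CCNB1 (-0.17) did not pass the test, and AURKA fell (-0.55). These genes had a median GC content of 43.6%. Among 30 kinesins 14 (7 to 16) rose and 2 (2 to 4) fell (median 0.38), with KIF14 (1.37) and KIF11 (1.34) higher and KIF1C (-0.47) lower. Of tubulins 5 (2 to 4) rose and 3 (0 to 6) fell of 13 tested (median -0.08, 0.075 with the GC correction, -0.16 without replicate 2, -0.20 without replicate 3, overlapping, 1 of 16 settings with the other sign), with TUBB (-0.41) lower and TUBB4B (0.65) and TUBB3 (0.79) higher.

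The other cell cycle lists were mixed. In DNA replication 13 (9 to 20) rose and 7 (4 to 9) fell of 55 tested (median 0.17, 0.059 without replicate 3), with TOP2A (1.07), CLSPN (1.11) and PCNA (0.34) higher and MCM5 (-1.09) and TYMS (-0.55) lower. TOP2A had 965, 709 and 365 CPM in the treated libraries against 289.8, 349.5 and 332 CPM with DMSO. In DNA repair 13 (6 to 24) rose and 4 (3 to 6) fell of 53 tested (median 0.29, 0.10 with the GC correction, 0.17 without replicate 1). BRCA2, of homologous recombination, rose from 36.02, 37.2 and 41.7 CPM to 212, 121 and 58.2 CPM (1.77), ATR, the replication stress kinase, rose (1.32), and the Ku subunits XRCC5 (-0.52) and XRCC6 (-0.31) fell. For G1 cyclins, CDK inhibitors and E2F genes 5 (2 to 6) rose and 9 (5 to 9) fell of 26 tested (median -0.023, 1 of 16 settings with the other sign), with CDK4 (-0.66) and CCND1 (-0.41), the kinase and cyclin of G1, lower and CDKN2D (1.37), an inhibitor of CDK4, higher. Targets of p53 had 6 (5 to 7) rises and 9 (6 to 10) falls of 27 (median -0.14, -0.084 without DMSO replicate 2). TP53INP1 rose from 21.7, 21.02 and 26.5 CPM to 72.2, 71.3 and 61.9 CPM (1.57) and RRM2B rose (1.45), whereas FAS (-1.21) and TNFRSF10A (-1.26), both death receptors, and AEN (-0.97) fell. In the BCL2 family, caspases and death receptors 8 (3 to 10) rose and 13 (10 to 15) fell of 36 tested (median -0.17, -0.092 with the GC correction, -0.11 without replicate 2). CASP4, an inflammatory caspase, fell from 31.9, 36.8 and 35.3 CPM to 10.2, 12.99 and 11.4 CPM (-1.59), and MCL1 rose (0.46) while BCL2L1 fell (-0.36).

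The transcription factors that define hepatocytes fell in part. Of 25 tested, 9 (7 to 11) fell and 1 (0 to 3) rose (median -0.30, library medians -0.27, -0.36 and -0.26). NR1I2, the xenobiotic receptor PXR, fell from 17.6, 18.3 and 17.9 CPM to 7.54, 6.93 and 4.31 CPM (-1.50). The more abundant HNF4A (-0.12), CEBPA (0.19), CEBPB (-0.13) and FOXA1 (-0.40) did not pass the test, and NR0B2, the repressor SHP, rose (0.49). Among all nuclear receptors 5 (1 to 7) rose and 11 (5 to 11) fell of 29 tested (median -0.18, -0.039 with the GC correction, -0.057 without replicate 1, -0.11 without replicate 2), with NR2F6 (-1.07) lower and NR3C1, the glucocorticoid receptor (0.47), and NR3C2, the mineralocorticoid receptor (1.05), higher. In other families of transcription factors fewer members passed the test. For FOX genes 1 (0 to 3) rose and 1 (0 to 4) fell of 17 tested (median -0.12, 0.023 with the GC correction, -0.015 without replicate 1, -0.18 without replicate 3, -0.059 without DMSO replicate 1, overlapping, 1 of 16 settings with the other sign), for KLF and SP genes 3 (2 to 3) rose and 1 (0 to 4) fell of 15 tested (median -0.25) and for the ETS family 1 (0 to 1) rose and 4 (2 to 6) fell of 14 tested (median -0.081, -0.31 with the GC correction, -0.29 without replicate 3, -0.14 without DMSO replicate 1, -0.27 without DMSO replicate 2). Within them SP4 rose (1.65) and ETV4 fell (-1.14). Of the smaller families SOX4 (-1.17) and SOX12 (-0.71) were lower among 7 SOX genes tested, of which 3 fell (median -0.46), and 1 of 4 HOX genes fell (median -0.71).

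Bile acid genes had the lowest median of all lists, -1.63, with 12 (11 to 13) falls and 1 (0 to 1) rise among 17 tested. Library medians were -1.74, -1.35 and -1.61, and the median was -1.46 after the GC correction. Where at least 10 counts were required in every library, the median was -0.72 over 12 genes with 7 falls, and 3 other lists had lower medians. The genes that fell cover synthesis (HSD3B7 and AKR1D1, and CYP27A1 of the acidic pathway), sulfation (SULT2A1), export (ABCC2 at the canalicular side and SLC51B at the basolateral side) and the bile acid receptor NR1H4. ABCC2 fell from 468, 499 and 524 CPM to 112, 98.7 and 124 CPM (-2.16), HSD3B7 from 169, 156 and 166 CPM to 37.7, 40.1 and 48.3 CPM (-1.97) and CYP27A1 from 279, 252 and 262 CPM to 136, 129 and 159 CPM (-0.90). The rise was NR0B2, which FXR normally induces, from 73.96, 73.1 and 82.4 CPM to 95.3, 99.8 and 128 CPM. FGFR4, the receptor for the gut hormone FGF19, had a log2 fold change of 0.025 and did not pass the test. NR1H4 itself was at 17, 17 and 8 counts in the treated libraries.

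Among enzymes of detoxification falls outnumbered rises in each of 4 lists. Of 19 conjugating enzymes 13 (10 to 13) fell and 1 (0 to 1) rose (median -0.91). MGST2, a microsomal glutathione transferase, fell from 86.6, 84.5 and 78.5 CPM to 33.1, 27.7 and 35.4 CPM (-1.38), UGT2B7 (-1.75) and UGT2B10 (-1.33), paralogs with similar sequence, fell as well, and GSTM3 rose (0.50). Among cytochrome P450 enzymes 2 (1 to 2) rose and 8 (7 to 11) fell of 15 tested (median -0.63). CYP4F11 (-1.13), CYP2W1 (-0.99) and CYP24A1, which inactivates vitamin D (-0.59), fell, and CYP20A1 (0.70) and CYP2U1 (0.96) rose. Of aldehyde and alcohol dehydrogenases and aldo-keto reductases 1 (0 to 3) rose and 13 (10 to 13) fell of 24 tested (median -0.58). AKR1C1, among the most abundant, fell from 1147, 1170.5 and 1107 CPM to 450.01, 401 and 517 CPM (-1.32), and its close paralog AKR1C2, with which it can share reads fell as well (-1.76). ALDH1B1 fell from 76.4, 66.5 and 63.8 CPM to 22.6, 30.9 and 27.7 CPM (-1.35). Short-chain dehydrogenases other than DHRS2 had mostly lower values, and in the family 3 (1 to 3) rose and 7 (5 to 9) fell of 21 tested (median -0.19, -0.12 without replicate 2), with DHRS3 (-1.35), a retinal reductase, lower and HSD17B12 (0.51) higher.

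Secreted proteins of the liver had many falls, but the 3 most abundant carriers did not pass the test. Of 26 carrier and acute-phase plasma proteins 17 (15 to 21) fell and 0 rose (median -0.75, library medians -0.84, -0.80 and -0.55). AGT, angiotensinogen, fell from 695, 631 and 629 CPM to 251, 274 and 347 CPM (-1.17), AHSG, fetuin-A, from 2035, 2015 and 2094 CPM to 830.001, 1029.6 and 1426 CPM (-0.90), and VTN, vitronectin, from 106, 107 and 133 CPM to 24.8, 43.9 and 64.7 CPM (-1.38). ALB had 2741, 3301 and 3382 CPM with DMSO and 3076, 2713 and 2052 CPM with ABBV-075 (-0.27), and TF (-0.27) and SERPINA1 (-0.29) did not pass the test either. In coagulation and fibrinolysis 13 (11 to 15) of 20 fell and 0 (0 to 1) rose (median -0.74). F11 fell from 19.5, 27.6 and 20.1 CPM to 10.9, 9.81 and 7.70 CPM (-1.23), and FGA, a fibrinogen chain, fell (-0.64) while FGG, another, did not pass the test (0.094). Of complement genes 9 (4 to 12) of 18 fell (median -0.65), among them C1S (-1.18) and C1R (-1.12), the proteases of the C1 complex, and C8B (-0.94). The abundant C3 (-0.21) and CFB (-0.25) did not pass. Where at least 10 counts were required in every library, 5 of 13 complement genes fell (median -0.41). Among serpins, many of which are secreted inhibitors of these proteases, 3 rose and 13 (11 to 14) fell of 20 tested (median -0.68). SERPINC1, antithrombin, fell from 34.9, 39.7 and 46.4 CPM to 15.1, 17.9 and 18.8 CPM (-1.23), SERPINH1, a collagen chaperone in the endoplasmic reticulum, fell (-1.51), and SERPINI1 rose, as given above.

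Among apolipoproteins and genes of lipoprotein handling falls outnumbered rises, yet the most abundant member rose. Of 21 genes 12 (10 to 13) fell and 1 rose (median -0.57). APOB, the protein of VLDL, was the rise, with 6253, 7359 and 7011 CPM with DMSO and 13732, 13838 and 9396 CPM with ABBV-075 (0.84), and its treated library of replicate 3 lay nearest to the DMSO libraries. MTTP, which loads lipid onto APOB, fell from 153, 146 and 153 CPM to 64.4, 60.6 and 51.7 CPM (-1.35). APOA5 (-1.28), APOA4 (-1.35), APOH (-0.74), the hepatic lipase LIPC (-0.91) and the cholesterol exporter ABCA1 (-1.07) also fell, and APOA1 (0.24), APOA2 (0.18) and APOE (-0.22) did not pass. Cholesterol synthesis went both ways, and 4 (3 to 7) rose and 9 (4 to 9) fell of 24 tested (median -0.17). Among its enzymes TM7SF2 (1.02), IDI1 (0.89) and SC5D (0.74) rose, and CYP51A1, the lanosterol demethylase, fell from 280.4, 319.6 and 342 CPM to 244, 209.8 and 213 CPM (-0.50). For fatty acid and triglyceride synthesis 6 (4 to 6) rose and 13 (10 to 16) fell of 33 tested (median -0.26, -0.14 with the GC correction), with 7 falls past the fold threshold. ACSL5, which activates fatty acids, fell from 214, 220.2 and 201 CPM to 37.2, 34.9 and 34.2 CPM (-2.58), MOGAT2 fell (-1.93), and FASN, fatty acid synthase, rose (0.56). For fatty acid oxidation and ketogenesis 5 (3 to 6) rose and 7 (6 to 10) fell of 28 tested (median -0.11, 0.011 with the GC correction, -0.17 without replicate 3, 1 of 16 settings with the other sign). ACOX2, of peroxisomal oxidation, fell from 21.2, 20.1 and 18.4 CPM to 5.59, 7.503 and 6.16 CPM (-1.63), ETFB, which takes electrons from the dehydrogenases, fell (-1.16), and ETFDH rose (1.78).

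Falls outnumbered rises in amino acid catabolism and in the genes that answer amino acid shortage. In amino acid catabolism and the urea cycle 3 (0 to 3) rose and 20 (17 to 25) fell of 41 tested (median -0.55), with 4 falls past the fold threshold. MAT1A, which makes S-adenosylmethionine in liver, fell from 217, 201 and 189 CPM to 51.1, 42.1 and 54.5 CPM (-2.04), AMT, of glycine cleavage, fell (-1.43), and GLUD1, glutamate dehydrogenase, fell from 819.6, 874 and 856 CPM to 547, 555 and 639.8 CPM (-0.55). Of 24 genes of the ATF4 and amino acid stress response 12 (8 to 15) fell and 0 (0 to 1) rose (median -0.39). TRIB3, a pseudokinase induced by ATF4, fell from 151, 129 and 146 CPM to 38.7, 38.7 and 44.3 CPM (-1.81), STC2 (-1.48), PYCR1 and ALDH18A1 of proline synthesis (-1.29 and -0.92) and PHGDH of serine synthesis (-0.95) fell, and ATF4 itself fell by less (-0.31). The call for ATF4 was lost in 9 of the 16 alternative settings. Of cytosolic aminoacyl-tRNA synthetases 1 (0 to 3) rose and 7 (3 to 8) fell of 20 tested (median -0.20), with WARS (-0.83) and MARS (-0.73) lower. In glycolysis, gluconeogenesis and glycogen 2 (0 to 2) rose and 13 (10 to 19) fell of 34 tested (median -0.21, -0.10 with the GC correction, -0.091 without replicate 1, -0.33 without replicate 3). ENO1 fell from 2968, 2781 and 2730.1 CPM to 1869, 1804 and 2217 CPM (-0.53), PFKP (-1.98) and PCK1, of gluconeogenesis (-1.75), fell, and the abundant GAPDH (0.038), LDHA (-0.08), PKM (-0.10) and ALDOA (-0.22) did not pass.

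Falls were frequent among nucleolar factors, and among cytosolic ribosomal proteins and the respiratory chain their number depended on 1 library. Without ABBV-075 replicate 3, 38 of 77 cytosolic ribosomal proteins and 32 of 74 respiratory chain genes fell, in a fit where 2967 of all genes fell. With IFNg 38 and 27 fell, where 28.4% of all genes tested fell. Of 58 nucleolar ribosome biogenesis factors 26 (19 to 29) fell and 2 (0 to 9) rose (median -0.30, library medians -0.25, -0.38 and -0.32). PES1 fell from 97.3, 96.6 and 107 CPM to 33.3, 40.98 and 54.2 CPM (-1.24), RRS1 from 42.3, 51.2 and 49.3 CPM to 22.9, 19.3 and 21.2 CPM (-1.17), and MYBBP1A (-0.90), NOP16 (-0.89) and NOP56 (-0.37) fell, whereas NPM1 (0.10) and GNL3 (0.12) did not pass. Of 76 mitochondrial ribosomal proteins 27 (14 to 40) fell and 2 (1 to 2) rose (median -0.27). MRPL3 fell from 177, 209 and 183 CPM to 85.8, 77.3 and 74.2 CPM (-1.26) and MRPL15 from 57.2, 54.4 and 62.1 CPM to 18.96, 25.4 and 20.6 CPM (-1.42), and MRPS6 rose (1.18). Among cytosolic ribosomal proteins 1 (0 to 2) rose and 11 (2 to 38) fell of 77 tested (median -0.10, -0.18 without replicate 3, overlapping), with changes from -0.50 (RPS27L) to 0.43 (RPL28) in those that passed, and RPLP0 (0.029), RPS2 (0.14) and RPL13A (-0.18) did not pass. For translation factors 8 (4 to 13) rose and 9 (2 to 15) fell of 47 tested (median 0.037, -0.11 with the GC correction, -0.03 without replicate 1, overlapping, 2 of 16 settings with the other sign), with EIF5B (1.10) higher and EIF4B (-0.56) lower. In the respiratory chain and ATP synthase 0 (0 to 1) rose and 9 (5 to 32) fell of 74 tested (median -0.13, -0.21 without replicate 3, overlapping). NDUFC1, of complex I, fell from 37.1, 30.6 and 33.4 CPM to 14.3, 20.2 and 20.6 CPM (-0.88), and ATP5B (-0.091) and ATP5A1 (0.012), subunits of ATP synthase, did not pass.

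Proteasome and RNA-binding families had small medians. Of proteasome subunits 0 (0 to 6) rose and 11 (4 to 18) fell of 37 tested (median -0.18). PSMB5, the chymotrypsin-like catalytic subunit, fell (-0.61), and the immunoproteasome subunits PSMB8 (-1.86) and PSMB10 (-0.72) fell. Of SR splicing factors 2 (0 to 3) rose and 1 fell of 11 tested (median 0.10, -0.19 with the GC correction, 0.033 without replicate 1, 0.041 without replicate 2, overlapping, 1 of 16 settings with the other sign), with SRSF8 (-1.10) lower and SRSF11 (0.70) and SRSF3 (0.40) higher. For hnRNP genes 0 (0 to 2) rose and 5 (3 to 7) fell of 20 tested (median -0.12, -0.30 with the GC correction, -0.062 without replicate 3), with HNRNPA1 (-0.53) and HNRNPM (-0.64) lower. Both lists have transcripts of low GC content, with medians of 40.4% and 42.5%.

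Among inflammatory and interferon-induced genes falls outnumbered rises in each of 4 lists. Of 16 NF-kB targets and cytokines 12 (9 to 12) fell and 1 rose (median -0.94, library medians -0.96, -1.07 and -0.68). CCL20, a chemokine for lymphocytes and dendritic cells, fell from 68.5, 66.9 and 73.8 CPM to 33.1, 21.1 and 28.9 CPM (-1.33), CSF1, the growth factor of macrophages, from 9.07, 8.45 and 7.11 CPM to 1.46, 2.60 and 0.616 CPM (-2.36), ICAM1, a ligand for leukocyte integrins, from 74.8, 68.99 and 68.4 CPM to 26.3, 37.5 and 44.03 CPM (-0.98), and TNFAIP3, the NF-kB inhibitor A20, fell (-1.13). IER3 did not pass (0.24). Of 17 interleukins and their receptors 10 (7 to 11) fell and 1 rose (median -0.89). IL6R fell from 40.4, 35.9 and 42.9 CPM to 15.6, 16.4 and 15.4 CPM (-1.33), IL4R from 40.1, 36.1 and 39.005 CPM to 15.1, 12.4 and 17.6 CPM (-1.35), and IL1R1 (-0.87), IL13RA1 (-0.49) and IL32 (-0.89) fell. In the TNF receptor superfamily 1 (0 to 1) rose and 6 (5 to 6) fell of 9 tested (median -0.65), with TNFRSF14 (-1.47) and the decoy receptor TNFRSF10D (-0.99) lower and TNFRSF12A, the receptor of TWEAK, higher (0.52). Of 37 interferon-stimulated and antigen presentation genes 15 (10 to 20) fell and 0 (0 to 2) rose (median -0.52), in cells to which no IFNg had been added. TAP2, a peptide transporter, fell from 62.1, 58.3 and 60.1 CPM to 21.9, 27.99 and 27.1 CPM (-1.23), UBE2L6, which conjugates ISG15, from 31.3, 26.5 and 31.4 CPM to 6.81, 9.23 and 15.1 CPM (-1.54), and the abundant B2M (-0.19) did not pass.

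Lists of signalling pathways were mixed. For immediate-early genes and MAPK feedback 5 (4 to 6) rose and 3 (3 to 4) fell of 20 tested (median 0.03, 0.11 with the GC correction, 0.13 without replicate 1, 0.10 without replicate 2, -0.068 without replicate 3, 0.089 without DMSO replicate 3, overlapping, 4 of 16 settings with the other sign). FOSL1 (-1.97), DUSP5 (-1.58) and ETV4 fell, and JUND rose from 173, 153 and 159 CPM to 346, 324 and 371 CPM (1.10) as did DUSP6 (0.61), a phosphatase of ERK. In the EGF family 1 rose and 6 (3 to 5) fell of 9 tested (median -0.39, -0.25 with the GC correction). The ligand AREG fell from 38, 24 and 30 counts to 3, 6 and 5 counts (-2.53), the receptors ERBB3 (-0.40) and ERBB2 (-0.39) fell, EGFR did not pass (-0.14) and ERRFI1, an inhibitor of EGFR, rose from 90.2, 84.7 and 89.05 CPM to 142, 166 and 154 CPM (0.80). Of TGF-beta, BMP and YAP targets 6 (5 to 7) rose and 8 (6 to 10) fell of 23 tested (median -0.23). CTGF rose from 32.4, 31.8 and 33.4 CPM to 90.4, 103 and 122 CPM (1.69) and ID1, a BMP target, from 409, 402 and 404 CPM to 841, 765 and 992 CPM (1.10), whereas YAP1 (-0.74), WWTR1 (TAZ, -1.16) and AXL (-1.80) fell. Of Wnt pathway genes 7 (3 to 9) rose and 4 (2 to 4) fell of 21 tested (median 0.26). DKK1, a secreted inhibitor, fell from 196, 183 and 189.6 CPM to 82.9, 69.5 and 72.4 CPM (-1.34), APCDD1 fell (-1.52), and ZNRF3 (0.68), LGR4 (0.57), SP5 (0.52) and NOTUM (0.39) rose. For dual-specificity and receptor tyrosine phosphatases 4 (3 to 4) rose and 4 (3 to 6) fell of 25 tested (median -0.15, -0.29 without replicate 3, -0.10 without DMSO replicate 1), with DUSP9 falling from 568, 541 and 570.4 CPM to 238, 219.9 and 306 CPM (-1.14). Of RAB GTPases 11 (5 to 12) rose and 5 (3 to 6) fell of 41 tested (median 0.018, -0.045 with the GC correction, overlapping, 2 of 16 settings with the other sign), and RAB14 (0.97) and RAB8B (1.17) rose.

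Most lists of the cell surface had more falls than rises. Of adhesion and other G-protein-coupled receptors 0 (0 to 3) rose and 13 (10 to 14) fell of 22 tested (median -0.64). Where at least 10 counts were required in every library, 6 of 14 receptors fell and the median was -0.21. ADRA2C, an adrenergic receptor, fell from 163, 139.8 and 164 CPM to 63.9, 66.7 and 88.98 CPM (-1.09), and GPRC5C (-1.23) and P2RY2 (-1.05) fell. Of claudins and keratins 0 (0 to 1) rose and 7 (5 to 7) fell of 14 tested (median -0.34), with CLDN4 (-0.99) lower and KRT8 (0.0069) and KRT18 (0.25), the keratins of hepatocytes, not past the test. CDH1, E-cadherin, fell from 10.7, 9.37 and 11.3 CPM to 3.65, 4.04 and 3.39 CPM (-1.49), CDH2, N-cadherin, did not pass (0.066), and 2 of 6 cadherins fell (median -0.37). For collagens and laminins 1 (0 to 2) rose and 7 (4 to 9) fell of 14 tested (median -0.46), for integrins 1 (0 to 4) rose and 4 (2 to 4) fell of 12 tested (median -0.28, -0.18 without replicate 3) and for plexins, semaphorins and ephrins 4 (4 to 5) rose and 8 (7 to 10) fell of 25 tested (median -0.23, -0.053 with the GC correction, -0.15 without replicate 1, -0.15 without DMSO replicate 3). COL26A1 (-1.13), ITGB5 (-0.81) and SEMA3B (-1.14) fell, and PLXNA3 rose (1.12). For integrins the median was -0.12 where at least 10 counts were required in every library. In the libraries with IFNg, 5 of 11 integrins rose and 1 fell with ABBV-075 (median 0.015), where 28.2% of all genes tested rose and 28.4% fell. Of fucosyl- and sialyltransferases, which cap glycans, 1 (0 to 1) rose and 6 (4 to 6) fell of 12 tested (median -0.57, -0.37 without replicate 1), with ST3GAL1 falling from 39.6, 43.4 and 39.2 CPM to 11.9, 18.5 and 13.9 CPM (-1.47) and ST3GAL3 rising (1.49). Of GALNT and GlcNAc-transferases 5 (1 to 6) rose and 5 (5 to 7) fell of 24 tested (median -0.056, 0.004699 with the GC correction, 0.001245 without replicate 1, overlapping, 4 of 16 settings with the other sign), with B3GNT3 falling from 12.9, 11.4 and 10.8 CPM to 1.22, 2.60 and 0.308 CPM (-3.05), GCNT2 (-1.34) and B4GALT2 (-1.26) lower and GALNT1 (0.88) higher.

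Transporters and metal handling showed opposite changes of related genes. Of 200 SLC transporters 77 (66 to 91) fell and 28 (16 to 34) rose (median -0.25), with 24 falls and 2 rises past the fold threshold. SLC38A2, an amino acid transporter and the most abundant, rose from 769, 816 and 890.5 CPM to 2110.3, 1789 and 1199.9 CPM (1.04), and SLC39A14, an importer of zinc and iron, fell from 595, 633 and 629 CPM to 272, 298 and 309.7 CPM (-1.08). Of ABC transporters 7 (5 to 8) rose and 7 (5 to 8) fell of 29 tested (median -0.027, 0.046 without replicate 2, 0.043 without replicate 3, overlapping, 3 of 16 settings with the other sign), with ABCG2, the drug exporter, lower (-1.69) and ABCA7 (1.42) and ABCD3 (0.90) higher. For ion channels 4 (2 to 5) rose and 8 (6 to 8) fell of 23 tested (median -0.16, -0.004658 without DMSO replicate 2), and TRPV2 fell (-1.67) and TRPM7 rose (0.88). Of V-ATPase subunits 4 (3 to 5) rose and 1 (1 to 3) fell of 15 tested (median 0.18, 0.028 without replicate 3, overlapping), and ATP6V0C (1.25) and ATP6V1D (0.91) rose while ATP6V0E2 fell (-0.80). In iron handling 4 (1 to 5) rose and 5 (4 to 5) fell of 14 tested (median -0.39). The ferritin light chain FTL, which stores iron, rose from 7783, 6795 and 7312 CPM to 10409.8, 9889 and 12223 CPM, HMOX1, which frees iron from heme, fell from 96.8, 90.002 and 98.6 CPM to 31.6, 28.3 and 38.5 CPM (-1.54), and the importer SLC11A2 fell (-0.96). Of 7 metallothioneins tested, 4 rose and 1 fell (median 0.63), with MT1E rising from 119.9, 103 and 112 CPM to 181, 193 and 236 CPM (0.87), MT1X (0.79) and MT1G (0.63) rising and MT1F falling (-0.54). Their coding parts are alike, so the split of reads among them is uncertain.

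Stress pathways were given by 5 lists with medians of both signs. In endoplasmic reticulum stress and folding 1 (0 to 3) rose and 9 (4 to 11) fell of 19 tested (median -0.28, -0.18 with the GC correction). HSPA5, the chaperone BiP, fell from 374, 410.3 and 414 CPM to 247, 238 and 247 CPM (-0.71), XBP1 from 528, 511 and 512 CPM to 286, 280.5 and 344 CPM (-0.77), and HERPUD1 (-0.91) and SDF2L1 (-1.33) fell. In the cytosolic heat shock response 3 (2 to 7) rose and 1 (1 to 3) fell of 17 tested (median 0.26, 0.065 with the GC correction, 0.15 without replicate 1, overlapping), with HSP90AA1 rising from 781, 910.3 and 894 CPM to 2698, 1983 and 1189 CPM (1.18), HSPB1 falling (-1.14) and HSPA8 (0.068) and HSP90AB1 (-0.31) not past the test. Of NRF2 and redox genes 10 (6 to 10) rose and 7 (7 to 9) fell of 28 tested (median 0.12, 0.18 with the GC correction, 0.023 without replicate 3, overlapping). NQO1, a classical NRF2 target, did not pass (-0.13), FTH1, the ferritin heavy chain, rose (0.42), and HMOX1, AKR1C1 and AKR1C2 fell. In the hypoxia response 3 (2 to 5) rose and 6 (4 to 9) fell of 20 tested (median -0.26, -0.14 with the GC correction, -0.15 without replicate 1). HK2, a hexokinase, fell from 94.6, 93.9 and 97.4 CPM to 27.7, 35.8 and 42.2 CPM (-1.44), BHLHE40 fell (-1.43), and BNIP3L and KDM3A rose. Lysosome and autophagy genes had 11 (8 to 13) rises and 11 (6 to 16) falls of 46 (median 0.0098, 0.10 with the GC correction, 0.083 without replicate 1, -0.10 without replicate 3, overlapping, of the other sign in 5 of 16 settings). ULK1, the kinase that starts autophagy, rose from 13.5, 13.02 and 9.57 CPM to 23.3, 28.6 and 32.3 CPM (1.22), ATG2A rose (1.36), and CLN3 and RRAGD fell (-1.32).

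Classes of non-coding RNA had medians between -0.24 and 0.13. Of SNORA, SNORD and SCARNA genes 0 (0 to 1) rose and 24 (7 to 64) fell of 144 tested (median -0.24, -0.16 without replicate 1, -0.43 without replicate 3, -0.16 without DMSO replicate 1, overlapping), with library medians of -0.46, -0.39 and 0.12 that overlapped those of DMSO. The 64 falls were those without ABBV-075 replicate 3. The abundant SNORA73A (-0.072), SNORA73B (-0.029) and SNORD17 (0.033) did not pass, and SNORD35A fell (-1.19). Of the host genes of these RNAs 0 rose and 5 (3 to 4) fell of 19 tested (median -0.12, -0.013 without replicate 2, -0.20 without replicate 3), with SNHG16 falling from 407, 451 and 414 CPM to 247, 221 and 271 CPM (-0.79) and SNHG8 lower (-0.87), while GAS5 (-0.037), SNHG1 (0.11) and ZFAS1 (0.016) did not pass. Of LINC transcripts 7 (4 to 8) rose and 11 (8 to 20) fell of 68 tested (median -0.078, -0.13 without replicate 3, -0.13 without DMSO replicate 1, 1 of 16 settings with the other sign), with LINC00657 (NORAD) higher (0.42). Of antisense transcripts named -AS 23 (14 to 32) rose and 20 (13 to 25) fell of 142 tested (median 0.13, 0.072 without replicate 1, overlapping, 2 of 16 settings with the other sign). PCBP1-AS1 (-1.63) and NCBP2-AS2 (-1.99) fell. The sense strand held 98.4% to 98.5% of the counts, so these transcripts were largely counted apart from the genes they overlap. A small part of the reads of an abundant partner may still fall on them. The list was made by name alone, so a member may be coding.

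Most calls of the genes named above held without any 1 of the 6 libraries. Those lost without at least 1 library, each with the largest adjusted p by edgeR over these 6 fits, were ATF4 (0.174), BCL2L1 (0.106), BRD2 (0.0646), C1R (0.0835), C8B (0.064), CCND1 (0.0823), CYP24A1 (0.051), CYP2U1 (0.0703), EPCAM (0.082), ERBB2 (0.0798), ERBB3 (0.0676), FTH1 (0.125), GALNT1 (0.0515), GSTM3 (0.105), HDAC5 (0.098), HDAC7 (0.13), HSD17B12 (0.0524), IL13RA1 (0.0623), IL18BP (0.158), KRT19 (0.14), LINC00657 (0.117), MCL1 (0.0636), MLLT3 (0.0676), MT1F (0.129), NOP56 (0.0663), NOTUM (0.109), NR0B2 (0.0713), NR3C1 (0.101), NR3C2 (0.0753), PCNA (0.0939), RPL28 (0.107), RPS27L (0.0569), SOX4 (0.147), SRSF11 (0.0507), SRSF3 (0.0695), ST3GAL3 (0.0621), TNFRSF12A (0.0866), TUBB (0.0775), XRCC6 (0.154) and ZNF14 (0.0795).

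In libraries with IFNg, which share no library with the comparison above, the genes past the fold threshold had the same direction with ABBV-075 wherever they were tested. Of 11187 genes tested there, 3155 rose (28.2%) and 3176 fell (28.4%), 56.6% in all, and past the fold threshold 270 rose (2.41%) and 420 fell (3.75%). Of the 122 genes past the fold threshold as higher without IFNg, 112 were tested with IFNg, 112 were higher and 109 passed the test. Of the 359 that were lower, 317 were tested, 317 were lower and 312 passed. HEXIM1 (1.51), MYC (-0.81) and DHRS2 (2.66) had log2 fold changes with IFNg near those without it. Bile acid genes had a median of -1.13 with IFNg, NF-kB targets -0.88, general transcription factors 0.50, mitosis genes 0.23 and nucleolar factors -0.36. The snoRNA genes, with a median of -0.24 without IFNg, had -0.017 with it. Some lists had a median of the other sign with IFNg. Among these were integrins (0.015), histone deacetylases and sirtuins (-0.17), lysine demethylases and methyltransferases (-0.0053) and lysosome and autophagy genes (-0.20). DNA replication genes (0.043) and TGF-beta, BMP and YAP targets (-0.013) had smaller medians with IFNg than without it. The GC trend was present in all 3 libraries of IFNg with ABBV-075 as well, and its part in the shared direction was not tested.

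Whether IFNg altered the response to ABBV-075 was tested gene by gene with an interaction term in edgeR, over 12 libraries, and 4 of 11530 genes passed (0.0347%, with 2 in each direction, 0.0173% each). An unadjusted p under 0.05 was found for 775 genes, and without ABBV-075 replicate 1 the number that passed was 200. C1S fell from 26.1, 26.04 and 27.5 CPM to 9.72, 13.9 and 11.7 CPM without IFNg (-1.18) and by more with it (-2.82). TAP2 fell without IFNg (-1.23) and by less with it (-0.26), a difference whose adjusted p by edgeR reached 0.128 when DMSO replicate 1 was left out. PARP14 fell without IFNg (-0.83) and rose with it (0.42), and IL18BP, the soluble inhibitor of interleukin 18, rose from 4.40, 3.88 and 6.13 CPM to 6.56, 8.66 and 9.54 CPM without IFNg (0.77) and fell with it (-1.89).

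**Figure D5:**
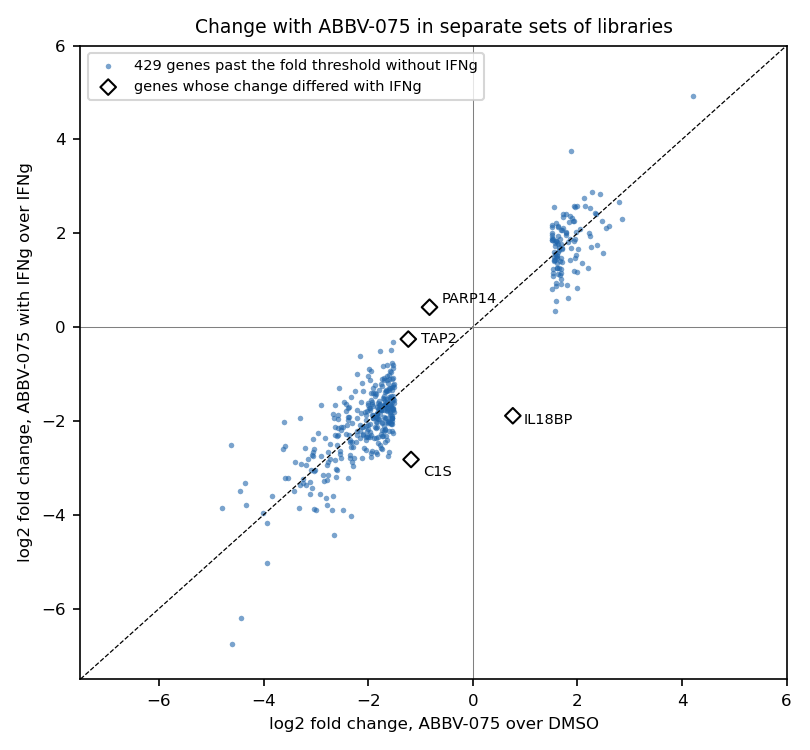
Log2 fold change with ABBV-075 over DMSO (x axis) against the log2 fold change with ABBV-075 and IFNg over IFNg (y axis) for the 429 genes past the fold threshold without IFNg that were tested in both (dots) and for the 4 genes of the interaction (diamonds). All 429 dots lie in the lower left or upper right quadrant, and the broken line marks equal values.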

How the data were processed

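Libraries of ribosomal RNA-depleted total RNA were sequenced, and per the labels and the study's methods the authors trimmed reads with Trimmomatic 0.33, aligned them to hg38 with STAR 2.7.1 and used CASAVA 1.8.2. The deposited files hold raw counts per gene for reads that aligned to 1 place, and the column for the sense strand was used, because 98.4% to 98.5% of the counts lay on it. The gene annotation used for counting is not given in the sources used here. Reads that aligned to several places, 56.0% to 67.4% in the 6 libraries, were not counted and stay out of library sizes, so families of near-identical genes are measured incompletely.

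Samples were grouped by title. Genes kept by filterByExpr were tested with the quasi-likelihood test of edgeR 4.0.16 (R 4.3.3) after TMM normalization, on the 6 libraries of the comparison alone, with Benjamini-Hochberg adjustment over all genes tested. Calls took an adjusted p of at most 0.05, and the fold threshold a change of 1.5 or more in size on the log2 scale. The test of the libraries with IFNg was made in the same way, and the interaction over all 12 libraries. The procedure was also run on simulated data with 200 changed genes and no GC trend. These simulated data held far fewer changes than the libraries here and do not bear on the GC trend. The labels do not say whether replicates came from separate cultures, and the study's methods speak of independent samples and experimental triplicates without saying more. The p-values therefore measure the spread between these libraries, part of which may be technical.

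Lists were given by function or by gene symbol. Members and lists were chosen with earlier results of these data known. In a list with at most 12 members tested all could be named, and in larger lists the 5 with the highest mean CPM and the 5 with the largest change among those that passed the test and had a mean log2 CPM of 2 or more. Genes outside the tables of the study were named as the 12 largest changes in each direction with groups that did not overlap and a mean log2 CPM of 3 or more. Some genes of these lists and 1 list are not reported here. Levels per library used log2(CPM + 0.5). The GC correction fitted a lowess curve (span 0.3) of each library's deviation on the GC content of the transcripts as an offset. Of the gene symbols, 23161 were paired with the annotation (GENCODE) by symbol, 1374 by an older symbol and 1940 were not paired. Promoters come from a RefSeq table of GRCh38.p14. Alternatives were DESeq2 1.42.0, other scalings, filters, strands, a GC correction, a replicate block and leaving out each library in turn.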

Additional observations from a re-analysis of the deposited data

Results flagged for a closer look

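The effect of ABBV-075 differed with and without IFNg, by the interaction test of edgeR over 12 libraries, in 4 genes. For IL18BP the difference was -2.67 on the log2 scale (adjusted p = 0.00131). With IFNg it had 26.7, 37.4 and 30.98 CPM without the inhibitor and 6.34, 9.93 and 9.49 CPM with ABBV-075, so that it was lower in 3 of 3 libraries. Without IFNg it was higher in 3 of 3 libraries. For C1S the difference was -1.66 (adjusted p = 0.00131 by edgeR), with 135, 119 and 120 CPM under IFNg and 17.8, 15.8 and 19.3 CPM under IFNg with ABBV-075. C1S was lower with ABBV-075 in 3 of 3 libraries in both settings.

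For PARP14 the difference was 1.23 (adjusted p = 0.00271 by edgeR). It had 178, 190.0 and 175 CPM under IFNg and 262, 232 and 234 CPM under IFNg with ABBV-075, higher in 3 of 3 libraries, and was lower in 3 of 3 libraries without IFNg. For TAP2 the difference was 0.96 (adjusted p = 0.0223 by edgeR), with 240, 275 and 274 CPM under IFNg and 206, 221 and 234 CPM under IFNg with ABBV-075.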

How the results depend on the processing

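A filter of at least 10 counts in every library gave 70 genes higher and 159 lower past the fold threshold, and no filter gave 190 and 567, with 652 lower past it under IFNg and 45 genes in the interaction, which tests more genes of low count. DESeq2 called 12 genes in the interaction. Leaving out each library in turn moved the genes that rose between 1365 and 3028, those that fell between 1552 and 2967, and the calls past the fold threshold between 95 and 230 higher and 373 and 460 lower. The cause was not tested. Under IFNg the same ranges were 2822 to 2987, 2927 to 3058, 240 to 315 and 431 to 490. The interaction count ranged from 3 to 200, with 200 without ABBV-075 replicate 1, 13 without ABBV-075 replicate 3 and 7 without replicate 1 of IFNg with ABBV-075. The GC correction gave 2427 genes higher and 2647 lower, 99 and 330 past the fold threshold.

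Of 540 genes with a call, 401 kept it in every setting and 0 changed direction over 8551 values, while 588 values lost the call. DESeq2, no filter and a filter of at least 10 counts moved the medians of 15, 15 and 11 lists by over 1.5 times. Of 1328 medians of lists, 139 moved by more than the spread between the treated libraries. Medians of 66 of the 83 lists kept their sign in every setting. Samples with the same replicate number had correlated deviations of -0.19, 0.077 and -0.069 without IFNg and of 0.20, 0.022 and 0.18 with IFNg, not all above 0.1, so the numbers were not taken to pair the samples. A replicate block gave 2045 genes higher and 2011 lower, 113 and 362 past the fold threshold. With IFNg the replicate block gave 3454 and 3454, 265 and 419 past it, and 4 in the interaction. Depth limits calls for genes under about 3 CPM, where 1 library holds about 10 counts.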
